A study of Mus musculus with 6 samples.

Results

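Organoids carrying 2 copies of a missense p53 allele were compared with organoids that lack p53, to ask which transcripts the mutant protein's presence goes with once the loss of normal p53 is shared by both sides. Tumor-derived organoids are three-dimensional cultures of tumor epithelial cells. All mice were C57BL/6, 15 to 20 weeks old, and carried a truncation of Apc at position 716, with loss of the remaining normal Apc copy in the tumors. The study holds 6 libraries of polyA RNA, and 4 of them enter this comparison: Apc Δ716 Trp53 R270H/R270H replicates 1 and 2, and Apc Δ716 Trp53 flox/flox replicates 1 and 2, each organoid line prepared from a different mouse. The Apc Δ716 Trp53 +/+ pair is quoted beside them for reference only. The flox allele is the same R270H allele with its stop cassette still in place, which makes it null. In R270H/R270H mice the cassette was removed by tamoxifen through villin-CreER, a recombinase made in intestinal epithelium, so tamoxifen treatment and genotype cannot be told apart. Genes were kept when at least 1 of the 4 libraries reached 4 rpkm (reads scaled to transcript length and to the mapped reads of the library), and genes on autosomes were reported. This left 9532 of the 36172 genes listed.

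p53 is a transcription factor that halts the cell cycle or starts cell death after damage. Missense changes in its DNA-binding domain abolish most of this activity but leave a protein that often accumulates in tumor cells. Truncation of Apc keeps β-catenin stable and Wnt target genes on, so every organoid here has an active Wnt pathway as its starting point. The small intestinal epithelium from which the tumors arise holds stem cells, Paneth cells with antimicrobial peptides, goblet cells, enterocytes and rarer hormone-secreting and tuft cells.

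Sex-linked genes went with genotype. Xist, the RNA that silences an X chromosome in female cells, was at the floor of the table (1 rpkm; no value in the file is lower) in both R270H/R270H and both +/+ libraries, and at 11.8 and 69.0 rpkm in flox/flox replicates 1 and 2. The Y-linked genes Ddx3y, Kdm5d, Uty and Eif2s3y were at 4.83 to 25.5 rpkm in the R270H/R270H libraries and at the floor in both flox/flox libraries. Sex and genotype therefore cannot be told apart, and genes on X and Y were left out of every count. The flox/flox pair also differed more between replicates, with a Pearson correlation of log2(rpkm+1) across genes of 0.930 against 0.993 for the R270H/R270H pair, and a median standard deviation of 0.247 against 0.062 on that scale. All 10 epithelial markers were expressed in all libraries, with summed levels of 3121 and 3271 rpkm in R270H/R270H and 6112 and 5104 rpkm in flox/flox organoids. Of 12 immune markers, 10 were at the floor in all 4 libraries, Ptprc (CD45) among them. The summed levels were 15.0 and 15.9 rpkm in R270H/R270H against 24.4 and 36.1 rpkm in flox/flox organoids, the difference coming from Cd14 and Cd68. Of 13 fibroblast and smooth muscle markers 7 were at the floor in all 4 libraries, and the sums were 13.5 and 13.8 rpkm in R270H/R270H against 13.0 and 25.7 rpkm in flox/flox organoids. Of 6 endothelial markers 3 were at the floor, Pecam1 and Kdr among them, with sums of 6.20 and 6.13 against 6.00 and 28.7 rpkm. The 4 erythroid markers found and all 5 neural and glial markers were at the floor throughout.

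Trp53 itself, at chromosome 11, 69580348 to 69591873 (GRCm38), stood at 72.8 and 82.7 rpkm in the R270H/R270H libraries and at 1.73 and 2.48 rpkm in the flox/flox libraries. The +/+ libraries held 75.9 and 74.3 rpkm, close to the R270H/R270H levels. The R270H/R270H mean was 36.9 times the flox/flox mean, with a log2 fold change of 4.67 (s.e. 0.18, adjusted p=0.0175 from limma). The table counts reads per gene and does not separate mutant from normal transcripts.

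A gene is written as called, higher or lower, when limma gave an adjusted p under 0.05 on log2(rpkm+1) and both R270H/R270H libraries lay on the same side of both flox/flox libraries. By this rule 247 genes (2.59%) were higher and 140 (1.47%) were lower in R270H/R270H organoids. A rule of size alone, at least 2-fold in each of the 4 library pairs, held for 423 genes higher (4.44%) and 240 lower (2.52%), of which 230 and 125 were also called. Of the genes called higher 152 reached the filter in R270H/R270H libraries only, and 40 of those called lower in flox/flox libraries only. Such a gene had to lie in that direction, so the counts and medians of lists below are descriptions of the members that passed. Without overlap between the genotypes lay 3506 genes higher (36.8%) and 3021 lower (31.7%). The median log2 fold change over all 9532 genes was 0.03. With 2 libraries a side an exact permutation test of a single gene cannot go below p=0.333, so every call rests on the spread that limma pools across genes. That dependence was large: with either R270H/R270H library left out limma called 0 genes in each direction, while 668 and 895 genes still had an unadjusted p under 0.05, and the remaining spread then comes from the flox/flox pair alone. With flox/flox replicate 1 left out the calls rose to 2070 higher and 1635 lower, and with replicate 2 left out to 3362 and 2948.

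**Figure D1:**
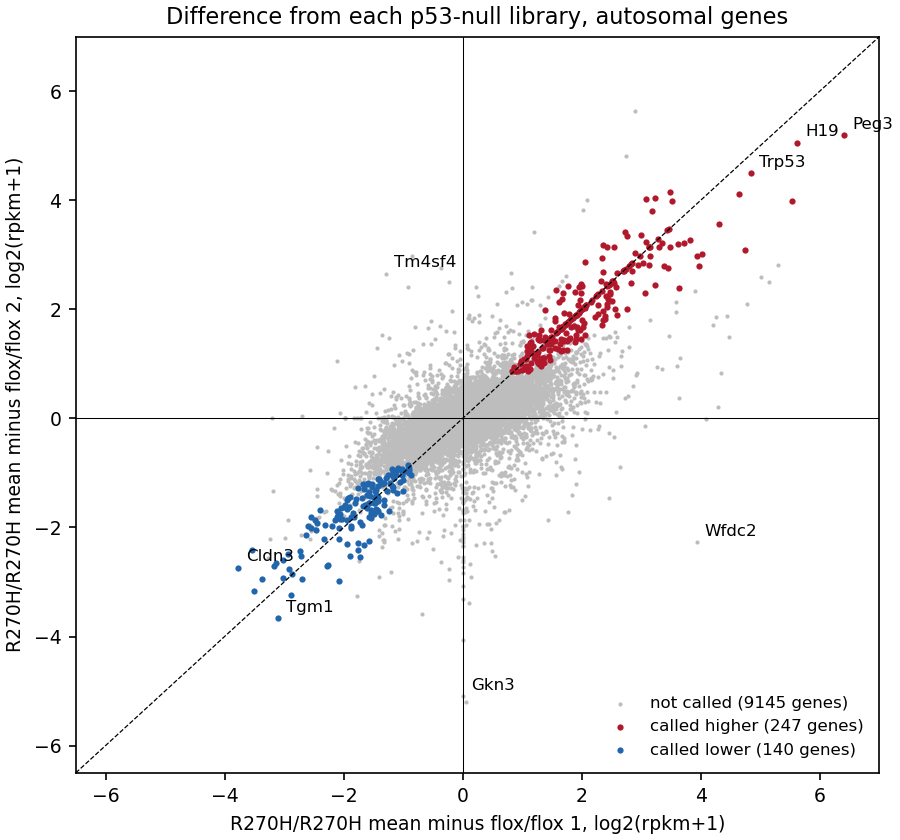
Each point is 1 of 9532 autosomal genes; the horizontal axis is the R270H/R270H mean minus flox/flox replicate 1 and the vertical axis the same mean minus replicate 2, on the log2(rpkm+1) scale. The 247 genes called higher (red) and 140 called lower (blue) lie along the dashed diagonal, where both p53-null libraries agree, and genes such as Wfdc2 and Tm4sf4 lie far from it.

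The 2 null libraries did not give the same list. R270H/R270H organoids were at least 2-fold above flox/flox replicate 1 in 1123 genes and above replicate 2 in 494 genes, on the log2(rpkm+1) scale, and 368 genes were above both, which is 32.8% of the first list and 74.5% of the second. In the other direction 830 and 518 genes were at least 2-fold below replicate 1 and replicate 2, and 279 were below both, 33.6% and 53.9% of these lists. In 1801 genes (18.9%) the null libraries fell on opposite sides of both R270H/R270H libraries. Every gene named as called below had both null libraries on the same side.

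The promoter sequences of 4 genes called higher are shown here before the values. They were taken from RefSeq on GRCm38.p6 and run from 250 bases before to 50 bases after a gene's start, 5′ to 3′ on the gene's own strand. Ddx58, Igtp and Irgm2 are interferon-stimulated genes that were called higher, and capitals mark matches on either strand to a pair of GAAA separated by any 2 bases, the core of the interferon-stimulated response element bound by interferon-activated factors. Defa21 encodes an α-defensin, and capitals mark matches on either strand to CTTTGAT, the core bound by TCF/LEF factors with β-catenin. The windows are chr4:40239776-40240075 on the minus strand, chr11:58199306-58199605 and chr11:58214727-58215026 on the plus strand, and chr8:21025295-21025594 on the plus strand.
Ddx58: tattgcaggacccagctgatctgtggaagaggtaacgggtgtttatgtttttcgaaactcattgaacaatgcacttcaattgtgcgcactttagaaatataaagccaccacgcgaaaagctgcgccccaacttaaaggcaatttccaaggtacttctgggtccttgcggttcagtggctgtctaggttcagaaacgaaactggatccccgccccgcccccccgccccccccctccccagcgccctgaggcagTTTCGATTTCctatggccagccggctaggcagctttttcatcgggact
Igtp: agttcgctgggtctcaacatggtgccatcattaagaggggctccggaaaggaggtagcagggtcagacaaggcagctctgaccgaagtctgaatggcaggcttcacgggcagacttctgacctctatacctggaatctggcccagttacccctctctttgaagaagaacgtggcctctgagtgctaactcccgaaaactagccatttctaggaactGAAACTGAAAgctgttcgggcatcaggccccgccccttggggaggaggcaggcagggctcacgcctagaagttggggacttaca
Irgm2: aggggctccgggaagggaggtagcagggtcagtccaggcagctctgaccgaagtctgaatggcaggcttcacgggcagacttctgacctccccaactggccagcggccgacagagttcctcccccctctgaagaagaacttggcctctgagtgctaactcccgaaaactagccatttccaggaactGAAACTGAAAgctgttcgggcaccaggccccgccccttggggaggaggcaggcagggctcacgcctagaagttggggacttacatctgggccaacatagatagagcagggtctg
Defa21: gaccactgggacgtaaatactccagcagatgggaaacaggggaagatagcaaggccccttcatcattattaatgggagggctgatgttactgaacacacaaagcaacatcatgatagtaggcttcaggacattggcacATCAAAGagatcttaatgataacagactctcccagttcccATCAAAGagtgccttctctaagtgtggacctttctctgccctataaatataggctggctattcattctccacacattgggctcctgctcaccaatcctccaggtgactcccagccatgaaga
The window of Defa22, at chr8:21162027-21162326, was identical to that of Defa21 at all 300 bases. The spaced GAAA pair was present in 3.44% of the 32851 promoters in the table, in 10 of the 14 tested interferon genes that have one, and in all 3 of the called interferon genes that have one, which are those shown. CTTTGAT was present in 3.73% of promoters and in 2 of 13 tested Wnt genes (Sp5 and Wnt5b, neither of them called). It was in 0 of the 7 Wnt genes called higher that have a promoter in the table, which says only that these letters are not in these windows.

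Wnt pathway genes formed the list with the most calls. Of 20 tested genes on a list of Wnt targets and feedback regulators, 8 were called higher and 0 lower, beside 2.59% and 1.47% of all genes. The median log2 fold change was 1.43 (1.77 with the 3 genes at the floor in flox/flox set at their bound). However, 4 of the 20 reached the filter in R270H/R270H libraries only, 3 of the called genes (Dkk2, Lef1 and Fzd10) among them. Nkd1, an inhibitor of Dishevelled that is switched on by the pathway it restrains, was at 129 and 137 rpkm in R270H/R270H and at 11.8 and 18.3 rpkm in flox/flox organoids (log2 fold change 3.09, s.e. 0.24, adjusted p=0.0194). Notum, a secreted enzyme that inactivates Wnt ligands, was at 113 and 121 rpkm against 8.52 and 21.5 rpkm (log2 fold change 3.01, s.e. 0.44, adjusted p=0.0467). Wif1, a secreted protein that binds Wnt ligands, was at 71.4 and 69.9 rpkm against 1.66 and 7.41 rpkm (log2 fold change 3.92, s.e. 0.57, adjusted p=0.0471). The genotypes did not overlap in any of these 3 genes. Notum and Wif1 each lost the call in 4 alternative settings, with adjusted p up to 0.0538 and 0.0626 from limma, and 5 to 12 genes of the list were called higher over the settings that kept all 4 libraries. Dkk2, of the Dickkopf family of Wnt regulators, was at 15.2 and 14.4 rpkm and at the floor in both flox/flox libraries, so it was at least 14.8-fold higher. Lef1, a transcription factor that pairs with β-catenin, was at 5.93 and 5.71 rpkm and also at the floor in both flox/flox libraries.

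The remaining called Wnt genes were Axin2, part of the complex that destroys β-catenin and a standard readout of the pathway, at 171 and 191 rpkm against 80.9 and 88.9 rpkm, Tcf7 at 40.9 and 39.0 against 22 and 21.5 rpkm, and the receptor Fzd10 at 18.9 and 18.3 against 2.82 and 1.16 rpkm. Not all of the list moved this way. Myc was at 41.4 and 46.5 rpkm against 80.2 and 77.7 rpkm (adjusted p=0.057), Ccnd1 at 82.5 and 86.4 against 84.7 and 113 rpkm, and Cd44 at 40.7 and 37.8 against 46.0 and 46.0 rpkm. In the +/+ organoids Nkd1 was at 57.5 and 50.7 rpkm, Notum at 82.3 and 78.9 rpkm, Wif1 at 15.5 and 16.5 rpkm and Axin2 at 136 and 130 rpkm. For these 4 genes both +/+ libraries lay between the R270H/R270H and the flox/flox pairs. Apcdd1, a membrane inhibitor of Wnt signaling, had one of the widest gaps on the list, 244 and 238 rpkm against 31.7 and 3.84 rpkm, but the spread of the null pair left it uncalled (adjusted p=0.078).

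The number of intestinal stem cell genes called was too small to tell from the share over all genes. Of 19 tested, 0 were called higher and 1 lower, beside 2.59% and 1.47% of all genes, and the median log2 fold change was −0.08. Ascl2, a transcription factor of crypt base stem cells and itself a Wnt target, was lower, at 8.16 and 10.8 rpkm against 38.8 and 28.4 rpkm (log2 fold change −1.72, s.e. 0.23, adjusted p=0.041). Lgr5, the receptor that marks these cells, was at 10.1 and 12.4 rpkm in R270H/R270H and 14.3 and 17.6 rpkm in flox/flox organoids (adjusted p=0.175).

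**Figure D2:**
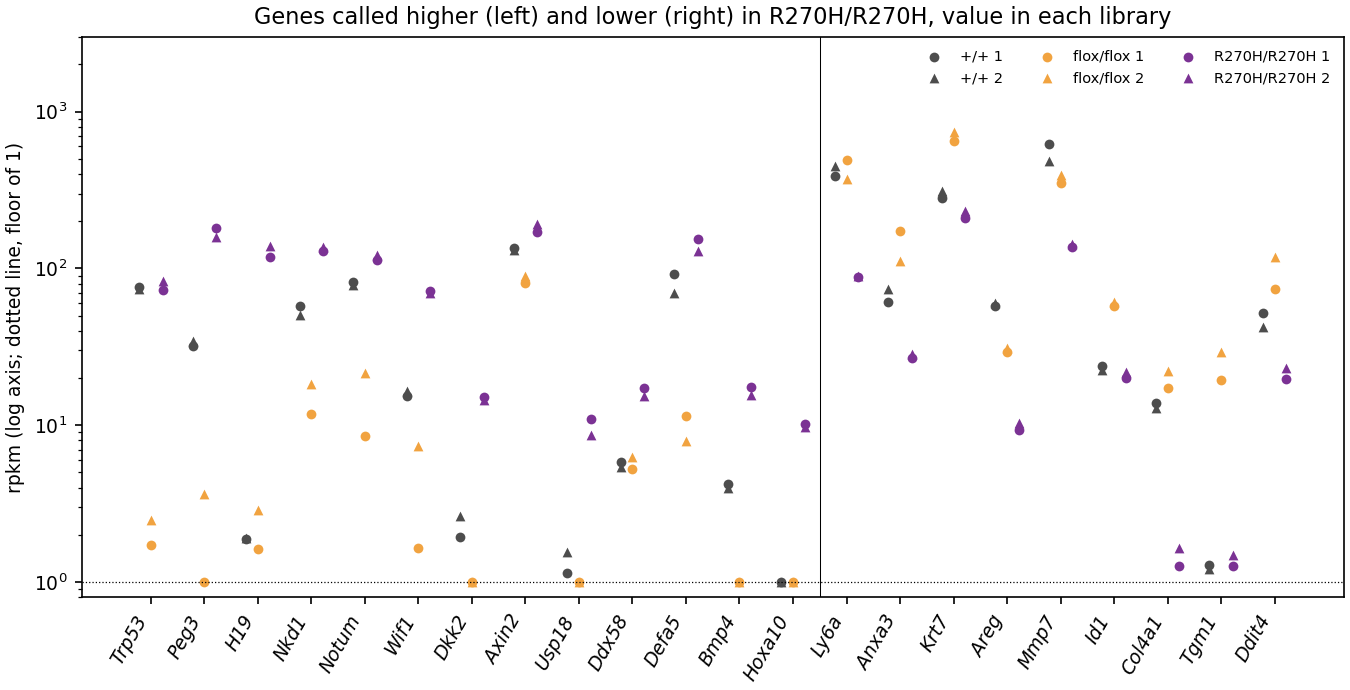
The rpkm of 22 genes in each of the 6 libraries on a log axis, circles for replicate 1 and triangles for replicate 2, with the genes called higher left of the vertical line and those called lower right of it. R270H/R270H and flox/flox symbols do not overlap for any of these genes, and the flox/flox symbols of Dkk2, Usp18, Bmp4 and Hoxa10 sit on the dotted floor of 1 rpkm.

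The 2 largest rises among all genes called were at imprinted genes, which are expressed from the copy of 1 parent. Of 10 tested genes on an imprinted list 3 were called higher and 0 lower, beside 2.59% and 1.47% of all genes, with a median log2 fold change of 1.18. All 3 reached the filter in R270H/R270H libraries only. Peg3, a zinc finger gene expressed from the paternal copy, was at 182 and 158 rpkm in R270H/R270H and at 1 and 3.66 rpkm in flox/flox organoids, a mean 73.0 times as high (log2 fold change 5.80, s.e. 0.44, adjusted p=0.0194). H19, a maternally expressed non-coding RNA, was at 118 and 140 rpkm against 1.63 and 2.88 rpkm (log2 fold change 5.34, s.e. 0.24, adjusted p=0.0175). Zim1, next to Peg3 on chromosome 7, was at 18.0 and 15.6 rpkm and at the floor in both flox/flox libraries, so it was at least 16.8-fold higher. The levels in +/+ organoids differed between these genes. They were 32.2 and 34.2 rpkm for Peg3 and 1.89 and 1.91 rpkm for H19, so H19 was near the flox/flox level there and Peg3 lay between. Igf2, the neighbour of H19, was under the filter at 3.79 and 3.80 rpkm against the floor, and Cdkn1c, a cell-cycle inhibitor, was at 23.5 and 24.8 against 5.69 and 9.79 rpkm (adjusted p=0.057). Phlda2 lay in the other direction, at 3.28 and 6.04 against 29.0 and 12.5 rpkm (adjusted p=0.094).

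Other rises at the top of the list came from varied functions. Npy, which encodes neuropeptide Y, was at 91.7 and 91.1 rpkm against 1 and 4.84 rpkm. Bpifb5 was at 47.7 and 50.8 against 1 and 1.90 rpkm, and Pdk4, a kinase that holds back pyruvate oxidation, at 42.3 and 35.2 against 1 and 2.32 rpkm. The uncharacterized gene 2510009E07Rik was at 29.5 and 25 against 1 and 1.91 rpkm. Among abundant genes, Glul (glutamine synthetase) was at 348 and 324 against 19.7 and 40.6 rpkm, Sypl, a vesicle membrane protein, at 349 and 324 against 61.8 and 77.9 rpkm, and the zinc transporter Slc30a2 at 163 and 172 against 18.3 and 22.9 rpkm. Srsf5, a splicing factor, had the smallest change of this group, 289 and 286 against 136 and 129 rpkm. In all of these genes both R270H/R270H libraries lay at least 2-fold above both flox/flox libraries.

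Paneth cell genes divided. Of 11 tested on a list of Paneth and antimicrobial genes, 3 were called higher and 1 lower, beside 2.59% and 1.47% of all genes. The median log2 fold change was 0.84. Of the 3 called higher, 1 (Defa22) reached the filter in R270H/R270H libraries only. Defa22 was at 46.7 and 44.8 rpkm against 3.23 and 3.21 rpkm (log2 fold change 3.47, s.e. 0.13, adjusted p=0.0175). The lectin Itln1 was at 135 and 156 against 38.4 and 54.7 rpkm and Reg4 at 97.6 and 102 against 31.1 and 35.9 rpkm. Mmp7, the protease that activates mouse α-defensins, was lower, at 138 and 143 against 351 and 397 rpkm (log2 fold change −1.40, s.e. 0.15, adjusted p=0.0316), and Lyz1, the lysozyme of Paneth cell granules, was at 125 and 129 against 135 and 99.8 rpkm (adjusted p=0.675). Outside the list, Defa21 was at 88.8 and 79.8 against 6.61 and 3.77 rpkm. Defa5 (155 and 130 against 11.4 and 7.99 rpkm), Defa2, LOC100505096 and LOC100862126, also on chromosome 8, were called higher as well. The α-defensins are a multigene family of closely related copies, so the share of reads that belongs to each gene is uncertain and they are not independent of each other. The +/+ libraries were at 91.9 and 69.4 rpkm for Defa5, 25.8 and 20.4 rpkm for Defa21, and 1 and 1 rpkm for LOC100505096.

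Of the other differentiated cells, goblet genes gave 1 call higher in 10 tested (Fcgbp, a mucus protein, 11.5 and 12 against 4.04 and 5.06 rpkm) and 0 lower. Enteroendocrine genes gave 1 higher in 2 tested (Nts, neurotensin, 15.1 and 14.8 against 5.06 and 3.01 rpkm). Over all genes 2.59% were called higher and 1.47% lower. Enterocyte genes gave 0 calls in 12 tested with a median log2 fold change of 0.75. The most expressed of them, Cdh17, an intestinal cadherin, was at 143 and 132 against 138 and 120 rpkm, and Vil1, whose promoter drives the recombinase, was at 99.7 and 98.5 against 156 and 99.4 rpkm. Tuft genes gave 0 calls in 3 tested. Cd24a was at 522 and 487 against 352 and 361 rpkm, and Avil was at 34.9 and 31.6 rpkm against 1 rpkm in flox/flox replicate 1 and 33.5 rpkm in replicate 2. Bulk RNA cannot tell a change in the number of such cells from a change in RNA per cell.

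Genes of the interferon response had 4 calls higher and 0 lower in 16 tested, beside 2.59% and 1.47% of all genes, and a median log2 fold change of 1.16. Both R270H/R270H libraries lay above both null libraries in 13 of the 16, beside 36.8% of all genes. However, 9 of the 16 reached the filter in R270H/R270H libraries only, 3 of the called genes among them. Usp18, which removes the ubiquitin-like modifier ISG15, was at 11.0 and 8.67 rpkm and at the floor in both flox/flox libraries, at least 9.83-fold higher (adjusted p=0.0233). Ddx58 (RIG-I, a sensor of viral RNA) was at 17.3 and 15.5 against 5.24 and 6.25 rpkm (log2 fold change 1.37, s.e. 0.16, adjusted p=0.035). The interferon-inducible GTPases Irgm2 (5.33 and 4.73 rpkm) and Igtp (5.25 and 4.58 rpkm) were at the floor in both flox/flox libraries. All 4 genes had +/+ levels under those of R270H/R270H organoids, with Ddx58 at 5.80 and 5.45 rpkm. The levels were low throughout. Of the 36 genes on the list, 20 missed the filter and 12 were at the floor in all 4 libraries, Mx1 and Gbp2 among them. The induced tetherin gene Bst2 was the 1 tested gene of the list with both R270H/R270H libraries below both null libraries, at 11.0 and 15.8 against 28.5 and 17.8 rpkm (adjusted p=0.189). A run of 5 neighbouring genes on chromosome 7, from 105895118 to 106644646, was also called higher: Gm4070 (20.9 and 19 against 2.59 and 1.38 rpkm), Gm8979 (53.8 and 47.9 against 4.50 and 2.15 rpkm), Gm4759, Gm8995 and Gm1966 (20.0 and 18.3 against 1.06 and 1.28 rpkm). Gm8979 and Gm4759 are annotated as transcribed pseudogenes, and reads shared between these copies could not be assigned.

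No MHC class I gene was called. Of 10 tested 0 were called in either direction and the median log2 fold change was −0.39, with H2-K1 at 83.9 and 99.8 against 177 and 154 rpkm (adjusted p=0.072) and H2-D1 at 79.0 and 83.4 against 128 and 123 rpkm (adjusted p=0.079). On the list of NF-kB and chemokine genes 1 of 21 was called higher and 3 lower, beside 2.59% and 1.47% of all genes, with a median of −0.42. The 1 called higher reached the filter in R270H/R270H libraries only, and 2 of the 3 called lower (Nfkbib and Icam1) in flox/flox libraries only. Lbp, which binds bacterial lipopolysaccharide, was at 7.31 and 5.73 rpkm against the floor. The genes called lower were the chemokine Cxcl16 at 6.23 and 7.02 against 31.6 and 24.9 rpkm, the inhibitor Nfkbib at 2.41 and 2.74 against 12.7 and 12 rpkm, and the adhesion molecule Icam1 at 1.27 and 1.24 against 5.73 and 5.62 rpkm. Nfkb1 and Rela, subunits of the factor itself, were at 20.8 and 23.7 against 29.4 and 31.7 rpkm and at 22.3 and 24.2 against 31.4 and 28.5 rpkm, and neither was called.

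Growth factor genes of the BMP and TGF-β family had 4 calls higher and 1 lower in 23 tested, beside 2.59% and 1.47% of all genes (median log2 fold change 0.58), and 3 of the 4 reached the filter in R270H/R270H libraries only. Bmp4 was at 17.6 and 15.6 rpkm and at the floor in both flox/flox libraries, at least 16.6-fold higher (adjusted p=0.0175). Tgfb2 was at 11.0 and 9.07 rpkm, also against the floor, and so was Inhbb, an activin subunit, at 4.78 and 4.39 rpkm. Bmp7 was at 24.3 and 23.6 against 10.4 and 8.60 rpkm. These 4 are ligands. The gene called lower was Id1, a standard target of BMP signaling, at 19.9 and 21.9 against 57.8 and 61.4 rpkm (log2 fold change −1.47, s.e. 0.14, adjusted p=0.0248). Of the receptors and Smad proteins tested, none was called, with Tgfbr2 at 50.1 and 52.8 against 86.0 and 68.5 rpkm (adjusted p=0.118) and Smad7, an inhibitor that the pathway induces, at 7.37 and 7.83 against 1.17 and 2.49 rpkm (adjusted p=0.061). Notch genes gave 0 calls in 9 tested. Hes6 was at 69.3 and 78.6 against 68.3 and 47.4 rpkm and Hes1 at 46.6 and 52.0 against 28.4 and 28.3 rpkm (adjusted p=0.060). Of 7 tested EGF receptor ligands and receptors 0 were called higher and 1 lower, the ligand Areg.

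Homeobox genes of 1 cluster were called higher in R270H/R270H organoids. Of 39 Hox genes listed, 2 passed the filter, both through the R270H/R270H libraries alone, so that they could only be higher. Hoxa9 was at 6.42 and 5.23 rpkm and Hoxa10 at 10.1 and 9.72 rpkm, with both flox/flox and both +/+ libraries at the floor. They stand in a run of 5 neighbouring tested genes on chromosome 6, from 52214491 to 52318389, that were all called higher: the non-coding RNA Mira (10.1 and 7.38 against 1 and 1.56 rpkm), Hoxa9, Hoxa10, 5730457N03Rik (14.0 and 11.0 rpkm against the floor) and the homeobox gene Evx1 (6.10 and 5.53 rpkm against the floor). 5730457N03Rik and Evx1 overlap by 1335 bases, and whether the counting used strand is not given in the sources used here, so their reads may not be separable. Of the other genes of the same cluster, Hoxa5 and Hoxa7 were under the filter at 1.67 to 2.00 rpkm in R270H/R270H organoids, and 29 of the 39 Hox genes were at the floor in all 4 libraries.

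**Figure D3:**
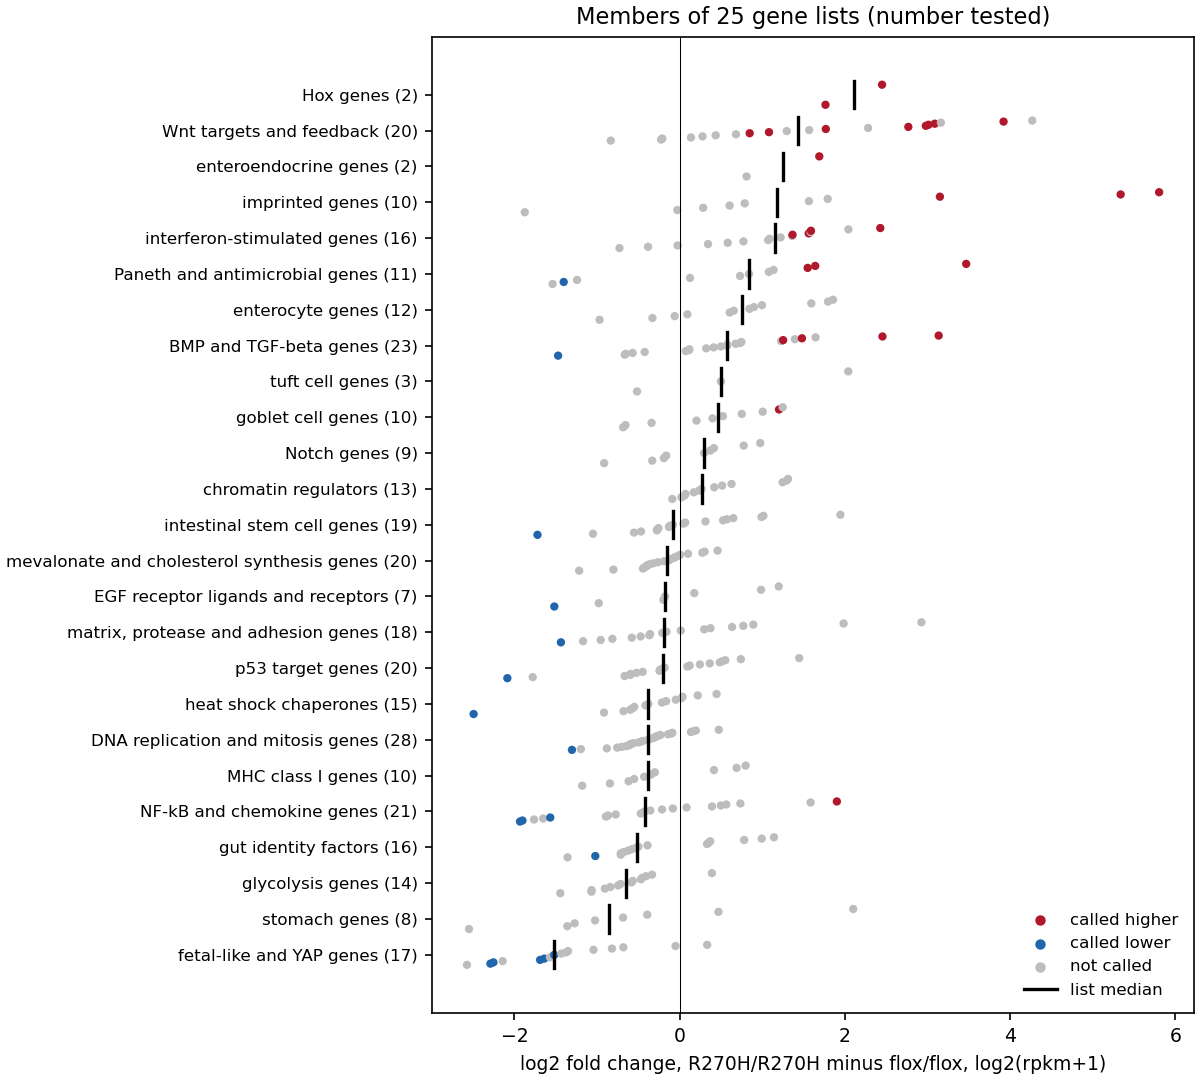
The log2 fold change of every tested member of 25 gene lists, R270H/R270H minus flox/flox on the log2(rpkm+1) scale, with calls in red (higher) and blue (lower), a black bar at each list's median and the number tested in brackets. Wnt targets (median 1.43, 8 of 20 called higher) and fetal-like and YAP genes (median −1.52, 5 of 17 called lower) lie at opposite ends among lists with over 10 tested members. Of the 8 Wnt genes called higher, 3 reached the filter in R270H/R270H libraries only.

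Most genes on a list that joins markers of fetal-like, regenerating epithelium with targets of the coactivator YAP lay lower in R270H/R270H organoids. Of 17 tested, 0 were called higher and 5 lower, beside 2.59% and 1.47% of all genes, and the median log2 fold change was −1.52. In 14 both R270H/R270H libraries lay below both null libraries, beside 31.7% of all genes. The 3 others were Il33, at 60.9 and 62.1 against 29.9 and 78.7 rpkm, S100a6, at 912 and 942 against 1274 and 722 rpkm, and Spp1, at 1.15 and 1 against 1 and 75.2 rpkm. Ly6a (Sca-1), a surface marker of that state, was at 88.1 and 89.7 rpkm against 494 and 370 rpkm (log2 fold change −2.25, s.e. 0.20, adjusted p=0.0233). Anxa3, a membrane-binding annexin, was at 26.8 and 28.3 against 173 and 111 rpkm (log2 fold change −2.29, s.e. 0.25, adjusted p=0.0309), and Anxa1 at 41.4 and 40.9 against 122 and 149 rpkm. Krt7, a keratin of simple epithelia, was at 211 and 233 against 646 and 741 rpkm, and Areg, a ligand of the EGF receptor, at 9.33 and 10.4 against 29.2 and 30.9 rpkm (log2 fold change −1.52, s.e. 0.14, adjusted p=0.0244). The YAP targets Ctgf (9.28 and 10.8 against 22 and 43.8 rpkm, adjusted p=0.083) and Cyr61 (6.58 and 7.70 against 10.9 and 16.3 rpkm, adjusted p=0.110) did not overlap between genotypes but were not called. Clu was at 47.4 and 46.4 rpkm against 76.3 rpkm in flox/flox replicate 1 and 578 rpkm in replicate 2. In +/+ organoids Ly6a was at 388 and 452 rpkm, inside the flox/flox range, whereas Krt7, at 282 and 312 rpkm, and Anxa3, at 61.5 and 73.8 rpkm, lay between.

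Other genes called lower encode structural proteins. Tgm1, a transglutaminase that cross-links the envelope of squamous cells, was at 1.27 and 1.48 rpkm against 19.5 and 29.2 rpkm, the steepest fall by log2 fold change (−3.39, s.e. 0.24, adjusted p=0.0194), and +/+ organoids held 1.29 and 1.21 rpkm. Col4a1 and Col4a2, the chains of basement membrane collagen IV, were at 1.27 and 1.66 against 17.2 and 22.1 rpkm and at 1.09 and 1.58 against 14.1 and 16.9 rpkm. These genes are transcribed away from each other on chromosome 8, and their RefSeq promoter windows share 78 bases. The stretch is shown because the start sites used for both windows lie in it, 21 bases apart. The full RefSeq span of Col4a1 reaches 11312889, outside the stretch, so not every Col4a1 start need lie in it. The shared stretch is chr8:11312777-11312854 (GRCm38.p6), 5′ to 3′ on the plus strand, the strand of Col4a2, and 73.1% of its bases are G or C.
Col4a2 and Col4a1: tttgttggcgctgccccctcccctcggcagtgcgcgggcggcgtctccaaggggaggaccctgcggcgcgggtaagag
Krt19 was at 301 and 379 against 946 and 1142 rpkm (log2 fold change −1.62, s.e. 0.21, adjusted p=0.0403), and Cldn3, a tight junction protein, at 10.7 and 15.3 against 189 and 91.0 rpkm. Krt8 and Krt18, the partner keratins, were at 539 and 584 against 1117 and 1021 rpkm and at 702 and 706 against 1336 and 1130 rpkm, without overlap and not called (adjusted p=0.064 and adjusted p=0.083). The tight junction gene Cldn7 was at 105 and 137 against 289 and 209 rpkm (adjusted p=0.086), and Epcam at 330 and 351 against 399 and 305 rpkm (adjusted p=0.908). On the list of matrix, protease and adhesion genes 0 of 18 were called higher and 1 lower, beside 2.59% and 1.47% of all genes. The gene called lower was Plaur, the urokinase receptor, at 6.74 and 8.69 against 22.3 and 22.6 rpkm. Vim, an intermediate filament gene usually taken as mesenchymal, was at 306 and 284 against 71.6 and 19.8 rpkm, a wide gap that the spread of the null pair left uncalled (adjusted p=0.075). Cdh1, which encodes E-cadherin, was at 209 and 201 against 210 and 268 rpkm.

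Other genes with steep falls have varied functions. The splicing subunit Sf3b5 was at 5.30 and 11.4 against 98.8 and 78.2 rpkm, the mitochondrial ribosomal genes Mrpl52 and Mrpl34 at 4.32 and 9.34 against 75.8 and 56.4 rpkm and at 3.71 and 6.58 against 44.3 and 39.3 rpkm, and Cox8a, a subunit of cytochrome c oxidase, at 23.9 and 45.2 against 275 and 257 rpkm. Bola1, of mitochondrial iron-sulfur assembly, was at 1 and 2.08 against 20.9 and 14.6 rpkm, 2700094K13Rik at 8.84 and 14.8 against 111 and 80.6 rpkm, the AP-1 factor Jund at 1.06 and 1.58 against 15.9 and 15.6 rpkm, and the cytokine Mif at 59.5 and 120 against 650 and 482 rpkm. In each of these R270H/R270H replicate 1 was below replicate 2. That order held in 115 of the 140 genes called lower, against 50.7% of all genes and 62 of the 247 called higher. Cdo1, a cysteine-degrading enzyme, was at 9.25 and 13.6 against 140 and 63.9 rpkm and 0610010O12Rik at 95.6 and 108 against 286 and 300 rpkm.

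Transcript length and base composition moved with the difference. The median log2 fold change ran from −0.24 for transcripts under 1000 nt to 0.35 for those of 4000 nt or more, and from 0.26 at a GC content under 45% to −0.28 at 55% or more. Genes called lower had a median length of 1279 nt and a median GC content of 55.9%, against 2093 nt and 50.9% for all genes and 2401 nt and 50.9% for genes called higher. The R270H/R270H replicates differed from each other by −0.16 at a GC content of 55% or more, and the flox/flox replicates by 0.27 in the shortest class and −0.43 in the longest, so the gradient also ran within genotypes. With the trend on length and GC taken off each library, 192 of 229 genes called higher and 105 of 124 called lower that have a transcript value were still called, Mrpl52, Cox8a and Mif among them. Sf3b5 was also still called, but its transcript value of 3841 nt is longer than its RefSeq span, chromosome 10, 13008450 to 13009183. The trend taken off Sf3b5 therefore cannot be relied on. Of the called genes named here and fitted that way, 4 of 64 lost the call: Irgm2, Fcgbp, Gm4070 and Klf4.

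**Figure D4:**
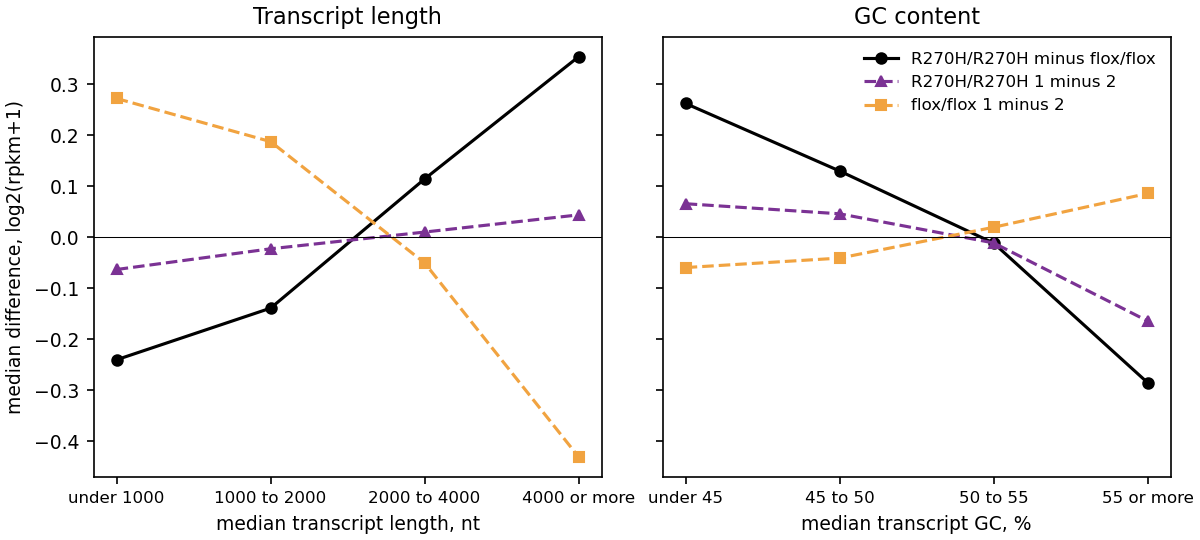
Median difference on the log2(rpkm+1) scale in classes of transcript length (left, nt) and GC content (right, percent); black circles are R270H/R270H minus flox/flox and dashed lines are replicate 1 minus replicate 2 within each genotype. The genotype difference rises from −0.24 to 0.35 with length and drops from 0.26 to −0.28 with GC content, and the flox/flox replicates differ by 0.27 to −0.43 over length.

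Calls among genes of growth and metabolism are given beside 2.59% higher and 1.47% lower over all genes. Of 28 tested genes of DNA replication and mitosis, 22 had both R270H/R270H libraries below both null libraries, beside 31.7% of all genes, and the median log2 fold change was −0.38. Only Plk1, a mitotic kinase, was called, at 20.9 and 28.5 against 60.5 and 63.1 rpkm (adjusted p=0.0476). It lost the call in 3 alternative settings, with adjusted p up to 0.0536 from limma, and 0 to 9 genes of the list were called lower over the settings that kept all 4 libraries. The proliferation marker Mki67 was at 84.1 and 73.0 rpkm against 33.3 and 94.0 rpkm, so the null libraries lay on either side. Of 14 tested glycolysis genes 12 were without overlap lower and 0 were called, with a median of −0.65. Gapdh was at 1595 and 1744 against 3166 and 3081 rpkm (adjusted p=0.077) and Ldha at 969 and 1051 against 1591 and 1407 rpkm (adjusted p=0.136). Mevalonate and cholesterol synthesis genes gave 0 calls in 20 tested and a median of −0.15, with Fdps at 261 and 247 against 394 and 289 rpkm and Idi1 at 186 and 168 against 238 and 227 rpkm. Chromatin regulators gave 0 calls in 13 tested and a median of 0.26, with Hdac1 at 154 and 143 against 106 and 101 rpkm and Suz12 at 89.0 and 85.3 against 58.0 and 72.6 rpkm. Of 15 heat shock chaperones 1 was called lower, Hspa1b, at the floor in both R270H/R270H libraries and at 8.73 and 12 rpkm in flox/flox organoids, at least 10.4-fold lower. Hsp90ab1, the most abundant chaperone of the list, was at 1908 and 1902 against 1707 and 2268 rpkm.

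Neither genotype has normal p53. The number of its target genes called was too small to tell from the share over all genes. Of 20 tested p53 target genes 0 were called higher and 1 lower, beside 2.59% and 1.47% of all genes. The median log2 fold change was −0.20, and 6 lay above and 9 below without overlap, beside 36.8% and 31.7% of all genes. Ddit4, an inhibitor of mTORC1 that stress also induces, was the gene called lower, at 19.6 and 23 against 74.2 and 118 rpkm (log2 fold change −2.09, s.e. 0.27, adjusted p=0.0384). Cdkn1a (p21) was at 31.9 and 29.5 against 11.8 and 27.0 rpkm (adjusted p=0.268) and Mdm2 at 23 and 22.5 against 14.4 and 16.9 rpkm (adjusted p=0.110). Both sides were below the +/+ organoids for both genes, which held 110 and 122 rpkm of Cdkn1a and 40.5 and 44.2 rpkm of Mdm2. Of 16 tested factors of gut identity 0 were called higher and 1 lower, beside 2.59% and 1.47% of all genes. The gene called lower was Klf4, at 12.7 and 12.5 against 28.2 and 25.1 rpkm. Its adjusted p of 0.0424 became 0.262 once the length and GC trend was removed, the highest of its values with all 4 libraries kept. Cdx2, which specifies intestine, was at 40.8 and 49.5 against 104 and 52.8 rpkm.

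The +/+ organoids lay between the genotypes for 161 and 101 of the called genes. In 161 of the 247 genes called higher both +/+ libraries were below both R270H/R270H libraries and above both flox/flox libraries, in 61 they were at or below the higher flox/flox library, and in 8 they were above both R270H/R270H libraries. In 101 of the 140 genes called lower both +/+ libraries lay between, in 18 they were at or above the lower flox/flox library, and in 6 they were below both R270H/R270H libraries. Both flox/flox libraries were at the floor for 64 of the genes called higher, where ratios are lower bounds and +/+ cannot lie below flox/flox. Both R270H/R270H libraries were at the floor for 4 of the genes called lower, where +/+ cannot lie below R270H/R270H.

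Chromosome 13 stood apart. Over its 341 tested genes the median difference of the R270H/R270H mean was −0.24 from flox/flox replicate 1 and −0.26 from replicate 2. On it 3 genes (0.88%) were called higher and 11 (3.23%) lower, beside 2.59% and 1.47% of all genes. Both R270H/R270H libraries lay below both null libraries in 51.9% of its genes and above in 14.1%, beside 31.7% and 36.8% of all genes. The R270H/R270H libraries were also at −0.29 and −0.37 against the +/+ mean on this chromosome, while the flox/flox libraries were at −0.07 and −0.05. On chromosome 5 the null libraries differed from each other by 0.34, with flox/flox replicate 1 higher. With the median of each chromosome removed from each library, 235 of the 247 genes called higher and 131 of the 140 called lower were still called.

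**Figure D5:**
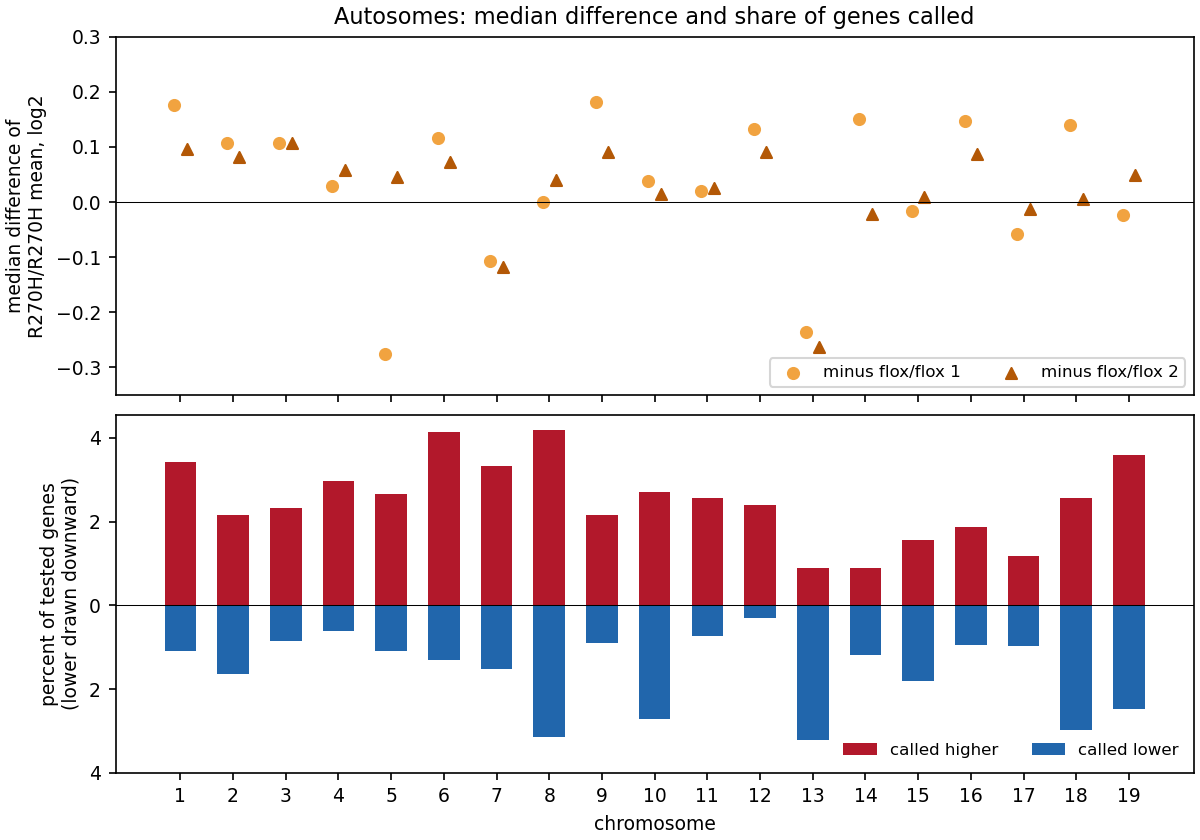
Upper panel: for each autosome the median over its tested genes of the R270H/R270H mean minus flox/flox replicate 1 (circles) and replicate 2 (triangles), log2(rpkm+1). Lower panel: percent of tested genes called higher (red, upward) and lower (blue, drawn downward). Chromosome 13 is at −0.24 and −0.26, and chromosome 5 is low against replicate 1 only.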

How the data were processed

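RNA from 6 organoid preparations, 2 for each Trp53 genotype, was sequenced from stranded polyA libraries. The analysis began from the deposited rpkm table, which the authors made in StrandNGS from alignments to mm10. The StrandNGS version, gene annotation, filters and depth are not given in the sources used here, so no counting interval can be given. The lowest value in the table is 1, taken here as its floor.

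Replicates come from different mice and share only a number. Genes were placed by RefSeq on GRCm38.p6; 22 genes that passed the filter had no position. In R 4.3.3, limma 3.58.1 fitted log2(rpkm+1) of the 4 libraries (lmFit, eBayes with trend=TRUE, two-sided, Benjamini-Hochberg over 9842 genes of any chromosome), with a filter of 4 rpkm in at least 1 of them. Python 3.11.15 with pandas 2.3.3 and matplotlib 3.10.9 made the tables and figures. Transcript length and GC are medians over GENCODE M21 transcripts, protein-coding where a gene has any, found for 91.4% of the autosomal genes tested; their trend was fitted by splines with 4 degrees of freedom each. The code was tested on simulated data.

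Named genes are Trp53, the 12 largest changes and the 6 most expressed genes in each direction that were called and at least 2-fold apart in all 4 pairs, up to 3 called genes in each direction from each of the 25 lists (the 2 most expressed where none was called), the 5 genes on which the flox/flox libraries disagree most, and runs of 4 or more neighbouring called genes; further list members are given for their role and were chosen after their values were seen. The members and lists were chosen with earlier results of these data known. Alternatives were the pseudocount, the filter, 2 scalings, no trend, robust eBayes, all 6 libraries, a replicate block and each library left out; 3 more, added after the data were seen, were the block with the R270H/R270H numbers exchanged, removal of the length and GC trend, and removal of chromosome medians. Some items covered by these rules are not reported here.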

Additional observations from a re-analysis of the deposited data

How the results depend on the processing

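The count of genes called varied widely with the settings. From 247 higher and 140 lower it went to 481 higher with any value above the floor allowed, to 373 higher and 229 lower with 4 rpkm asked of both libraries of a genotype, to 1299 higher and 1090 lower with all 6 libraries, and to 211 lower with the length and GC trend removed. Replicate numbers do not mark shared mice, and same-numbered deviations correlated at −0.20 across genes; with the number as a replicate block 538 genes were higher and 440 lower, and with the R270H/R270H numbers exchanged 754 and 763. Leaving out 1 library at a time gave 0 to 3362 genes called higher and 0 to 2948 called lower, and 449 to 1266 at least 2-fold higher and 252 to 754 at least 2-fold lower in all pairs left. The cause of these shifts was not tested. With 1 library left out, each estimate rests on fewer libraries and the spread comes from the intact pair alone. Of 74 called genes named, 74 lost the call without either R270H/R270H library, and 11 lost it under a change of pseudocount, filter or robust setting, with adjusted p of at most 0.0626 (Cdo1, Fcgbp, Igtp, Inhbb, Irgm2, Mif, Notum, Npy, Nts, Plk1 and Wif1); Inhbb also lost it without chromosome medians. Among the named genes and settings tried, the sign turned only for uncalled genes. With the length and GC trend removed the log2 fold change was −0.20 for Cdh17 and −0.00343 for Suz12, and with chromosome medians removed −0.087 for Adh1. Leaving out 1 library at a time moved it from −0.00396 to 0.19 for Cdh17, −0.013 to 4.10 for Avil, −0.25 to 1.19 for Ctse, −2.27 to 3.93 for Wfdc2, −1.45 to 2.46 for Akr1b8, −1.71 to 1.77 for Adh1, −1.29 to 2.66 for Tm4sf4 and −1.40 to 1.84 for Gpr128, with the flox/flox libraries at both ends of each range. Over all settings that kept the 4 libraries, 5 to 12 Wnt genes were called higher, 5 to 12 fetal-like and YAP genes lower and 2 to 11 interferon genes higher.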

Other observations

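In 29 genes 1 flox/flox library lay at least 2-fold above and the other at least 2-fold below both R270H/R270H libraries, 21 of them with replicate 2 as the higher. The 5 with the widest gap were the secreted whey-acidic protein gene Wfdc2 (25.2 and 34.6 rpkm in R270H/R270H, 1 and 146 rpkm in flox/flox replicates 1 and 2), the aldo-keto reductase Akr1b8 (16.8 and 15.0 against 2.05 and 45 rpkm), the alcohol dehydrogenase Adh1 (5.14 and 6.57 against 1 and 21.3 rpkm), Tm4sf4 (38.1 and 34.3 against 89.8 and 4.89 rpkm) and Gpr128 (6.11 and 6.17 against 1 and 17.8 rpkm). Averages over the null pair describe neither library for these genes.

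Several genes of the stomach lining were above the floor in flox/flox replicate 2 alone among the 4 libraries compared, though some were also expressed in +/+ organoids. Of 8 tested stomach genes 0 were called in either direction, beside 2.59% higher and 1.47% lower over all genes. With 8 genes this count cannot be told from those shares. The median log2 fold change was −0.85, but 6 of the 8 reached the filter in flox/flox libraries only, so it describes the members that passed. Gkn3 was at 67.6 rpkm in flox/flox replicate 2 and at the floor in replicate 1 and both R270H/R270H libraries. Gkn1 (10.6 rpkm), Cldn18 (7.27 rpkm), Anxa10 (12.2 rpkm), Lipf (4.17 rpkm) and the X-linked Vsig1 (9.71 rpkm) had the same pattern. In +/+ organoids Gkn3 was at 11.4 and 8.16 rpkm, Anxa10 at 4.81 and 5.68 rpkm and Lipf at 47.9 and 51.9 rpkm. Gkn1, Cldn18 and Vsig1 were at the floor there. Ctse, a protease of the same lining, was at 285 and 307 rpkm in R270H/R270H and at 352 and 129 rpkm in flox/flox organoids, in the opposite order. The mucin Muc6 was at 16.6 and 19.9 rpkm in R270H/R270H against 1 and 8.96 rpkm (adjusted p=0.166 from limma), and Tff2, under the filter, was at 1 and 1.00 rpkm against 3.64 and 3.40 rpkm. The same library held 11.5 rpkm of Acta2 and 21.4 rpkm of Tek, against 1 rpkm in replicate 1. These genes were chosen after their values were seen.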
